A study of Mus musculus with 11 samples.

Results

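The genes described here encode potassium channels and their auxiliary subunits, and were taken as every gene of the deposited count table whose symbol begins with Kcn. Names ending in os, as or -ps were left out, which removed 2 antisense transcripts, Kcnd3os and Kcnab3os. This gave 97 of the 50600 listed genes, of which 94 are protein coding. The other 3 are the noncoding RNAs Kcnq1ot1, Kcnmb4os1 and Kcnmb4os2, whose names end in a number and so stayed in. A gene was analysed if it had at least 10 counts in 2 or more of the 11 libraries, and 54 of the 97 passed, 53 of them protein coding. By family, 12 of 17 pore subunits of the Kv1 to Kv4 type passed, 9 of 15 inward rectifiers, 8 of 12 calcium- or sodium-activated channel subunits, 5 of 14 two-pore channels, 4 of 8 Kcnh, 3 of 5 Kcnq and 2 of 10 silent Kv modifiers. Among auxiliary subunits, 4 of 5 Kcne, 3 of 4 Kcnip and all 3 Kv beta subunits passed. Kcnrg, a regulator of Kv channels, did not. The 43 genes that did not pass had at most 11 counts in any library, and 8 of them had 0 counts in every library. They include Kcne2, Kcnk1 and Kcnma1, which are known from cardiac or vascular electrophysiology. Just inside the limit were Kcns1, with 10 or more counts in 2 libraries, and Kcnh3, with 3 such libraries, and just outside it were Kcna3, Kcne2, Kcnj10 and Kcnk1, with 1 library each. No gene passed on the strength of a single group, and 45 of the 54 reached 10 counts in all 4 groups.

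Potassium channels let potassium ions leave a cardiomyocyte and so end each action potential and set the resting potential. Transient outward channels open first, delayed rectifiers carry the later repolarization, inward rectifiers hold the resting potential, and other classes respond to acetylcholine, ATP, calcium or stretch. In rodent ventricles the transient outward current grows after birth while the action potential shortens, and its reduction is a known feature of cardiac hypertrophy. Most channels are assembled from pore-forming subunits with auxiliary subunits that set their gating and their number at the membrane.

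The study asked how the neonatal heart responds to pressure overload. Pulmonary artery banding (PAB) narrows the vessel that leaves the right ventricle. Wild type mice, given as C57BL/6 in the sample labels and as C57Bl/6J in the methods, were banded or sham operated within 6 h of birth under hypothermic anaesthesia, the sham animals having the chest opened without the band, and RNA was taken at postnatal day 3 (P3) or 7 (P7). There were 3 libraries of P3 sham, 3 of P3 PAB, 3 of P7 sham and 2 of P7 PAB hearts. The tissue is heart in the sample labels and ventricles in the methods, so the loaded right ventricle was not separated from the left. Nothing states whether each library came from its own animal or from pooled hearts, so the p-values measure the spread between these libraries. In such bulk RNA, fewer cells of a type and less RNA per cell cannot be told apart.

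Each library held 19274045 to 26820228 counts, of which 0.0971% to 0.130% fell on the 97 genes. Pairs of replicates had a chi-square per gene of 4.44 to 13.2, above that of counting error. A count of 0 allows up to 3 counts, or 0.114 to 0.148 counts per 1000000 (CPM) on the scale used here, which covers counting error only. Both P7 PAB libraries stood apart in the relation of their counts to gene length, with a slope of -0.150 and -0.141 in log2 CPM per unit of log2 exonic length, against -0.029 to 0.069 in the other 9. Xist, transcribed from the silenced X chromosome, was at 630 to 1062 CPM in all 3 P7 sham libraries and P3 sham replicate 1, and the Y-linked Ddx3y was at 42.9 to 51.0 CPM in the other 7. At P7 these transcripts separated all sham from all PAB libraries, so the operation and this class cannot be told apart at P7 without the P3 libraries. Calls lost with the length trend removed, or with this class as a term, are therefore given beside the results. Only P3 sham held both classes, so that term rests on P3 sham replicate 1 and assumes the same effect at P7. The ventricular marker Myl2 was at 6128 to 10310 CPM, and the atrial markers Myl7 and Sln were at 23.1 to 104 and 1.47 to 5.61 CPM.

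The sequences just upstream of 4 genes with lower P7 PAB levels in the edgeR test described further on are shown because these genes carry the transient outward, the inward rectifier and a calcium-activated channel. Each is the 250 bases before the RefSeq start in GRCm38.p6, read 5′ to 3′ on the strand of the gene, and none overlaps an annotated exon. Capitals mark matches on either strand to the TATA motif TATAAA, the CCAAT box CCAAT, the GC box GGGCGG, the TEAD motif CATTCC or the GATA motif GATAA. The Kcnd2 window is chr6:21215096-21215345 on the plus strand, that of Kcnip2 chr19:45816064-45816313 on the minus strand, that of Kcnj2 chr11:111065914-111066163 on the plus strand and that of Kcnn3 chr3:89519914-89520163 on the plus strand.
Kcnd2: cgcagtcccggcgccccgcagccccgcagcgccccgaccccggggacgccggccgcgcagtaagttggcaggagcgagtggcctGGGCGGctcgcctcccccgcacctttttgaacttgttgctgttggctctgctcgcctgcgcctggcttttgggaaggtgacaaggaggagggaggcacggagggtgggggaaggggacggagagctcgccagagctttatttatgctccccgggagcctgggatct
Kcnip2: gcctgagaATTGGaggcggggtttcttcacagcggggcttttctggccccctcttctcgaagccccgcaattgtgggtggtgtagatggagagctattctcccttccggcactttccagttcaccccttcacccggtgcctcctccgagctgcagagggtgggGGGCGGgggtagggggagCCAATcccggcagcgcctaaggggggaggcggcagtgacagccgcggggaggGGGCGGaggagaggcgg
Kcnj2: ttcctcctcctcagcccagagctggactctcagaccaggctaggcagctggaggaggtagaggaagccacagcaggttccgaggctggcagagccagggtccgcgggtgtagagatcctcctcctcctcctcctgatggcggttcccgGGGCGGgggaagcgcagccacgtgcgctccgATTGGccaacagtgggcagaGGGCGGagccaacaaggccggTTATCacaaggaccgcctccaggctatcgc
Kcnn3: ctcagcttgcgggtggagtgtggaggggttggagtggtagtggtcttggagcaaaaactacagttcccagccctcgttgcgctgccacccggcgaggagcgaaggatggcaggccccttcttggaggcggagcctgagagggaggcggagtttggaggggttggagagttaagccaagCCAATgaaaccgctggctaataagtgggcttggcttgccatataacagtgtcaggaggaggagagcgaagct
The Kcnd2 window is 68.8% G and C and holds 1 GC box, which begins 166 bases before the start. The Kcnip2 window is 66.8% G and C, with GC boxes at 87 and 17 bases and CCAAT boxes at 242 and 69 bases before the start. Kcnj2 has 65.6%, and it is the only one of the 4 with a GATA match. The Kcnn3 window has 58.8% and 1 CCAAT box. Promoter windows were found for 39 of the 54 genes, 55 windows in all, with a median of 58.8% G and C against 52.4% over all 32851 windows. TATAAA was in 12.4% of all windows and in 0 of the 55. The GC box was in 32.7% of all windows and 40.0% of the 55, CCAAT in 33.8% and 34.5%, CATTCC in 12.6% and 10.9%, and GATAA in 22.6% and 14.5%. Such matches describe the letters only.

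Levels of different genes were compared as CPM per kilobase of exonic length. In P7 sham hearts the highest was Kcne1, an auxiliary subunit of the slow delayed rectifier, at 70.8 ± 2.32 CPM per kilobase (SD, n = 3). Kcnk3, a two-pore background channel, followed at 35.4 ± 3.99 (SD, n = 3). The next were Kcng2, a silent Kv modifier, at 31.1 ± 3.60, Kcnip2, the auxiliary subunit of the transient outward channel, at 30.1 ± 1.40, and Kcnj11, the ATP-sensitive pore subunit, at 28.4 ± 2.51 (each SD, n = 3). Among these 4 genes, mean ± SD of each overlapped with that of the next in order, and the 3 libraries of Kcne1 lay above all of them. The order was not fixed over age and operation. Kcng2 was the highest in P3 sham hearts, at 47.6 ± 2.96 CPM per kilobase (SD, n = 3), and Kcne1 was second at 42.8 ± 1.46 (SD, n = 3). Kcnip2 was at rank 4 in P7 sham and at rank 6 in P7 PAB hearts, where its level per kilobase was 17.2 ± 3.05 (SD, n = 2).

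**Figure D1:**
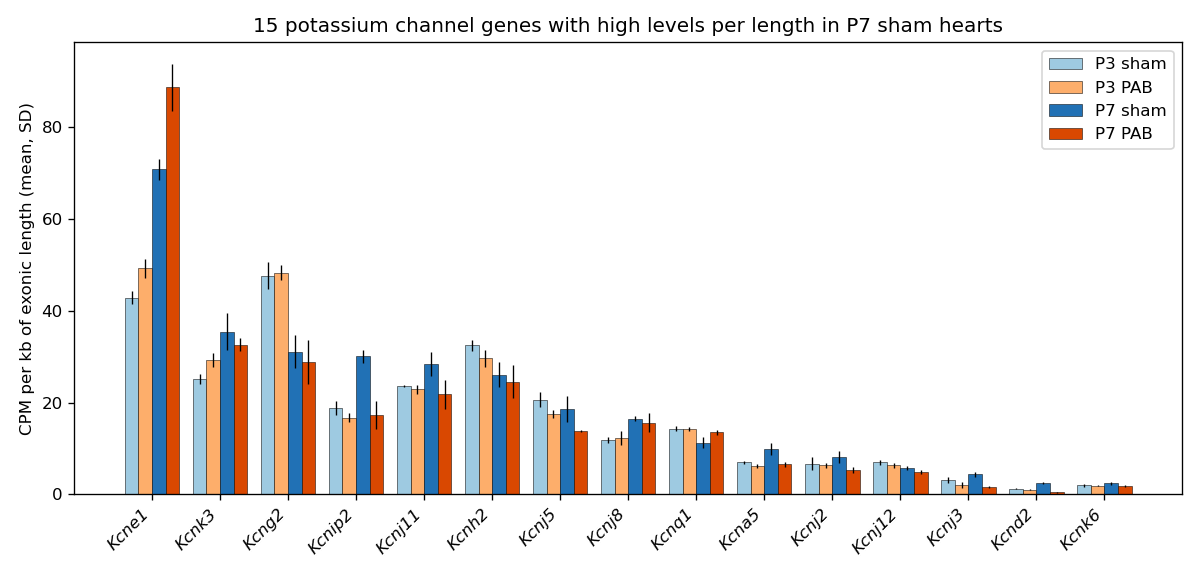
Level of 15 potassium channel genes with a high CPM per kilobase of exonic length in P7 sham hearts. Bars are group means and the error bars are SD over the libraries (n = 3, and n = 2 for P7 PAB). Kcne1 is at the top in both P7 groups, and Kcng2 is lower in both P7 groups than in both P3 groups.

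Between P7 PAB and P7 sham hearts, 11 of the 54 genes were lower and 3 were higher, taking 0.05 as the limit on the adjusted p of edgeR's quasi-likelihood test and 1.5 as the smallest fold change called. The 11 lower genes are 20.4% of the 54, against 8.58% of all 15924 genes tested that were called lower. The 3 higher genes are 5.56%, against 9.58% of all genes. The libraries of the groups did not overlap in the 14, nor in 99.1% of all genes called. Called or not, they did not overlap in 57.4% of the 54 and 60.2% of all genes. The median log2 fold change was -0.15 over the 54 genes and -0.0032 over all genes. That of the 54 was -0.079 without P7 PAB replicate 1, -0.37 without P7 PAB replicate 2 and -0.27 with a term for the Xist and Y class. All 3 higher genes encode Kcne subunits, and of the 11 lower genes, 9 encode pore-forming subunits, 1 encodes an auxiliary subunit and 1 is noncoding. The lower genes were long, with a median exonic length of 7468 bases, and the higher ones were short, with 1779, against 4161 over all genes. With the dependence on gene length removed from each library, 6 of the 11 and 2 of the 3 kept their call. With a term for the Xist and Y class, which rests on P3 sham replicate 1, 8 of the 11 and 2 of the 3 did. Without P7 PAB replicate 1, 6 of the 11 did, and 7 genes were called lower in all. Kcnd2, Kcnip2, Kcnj3, Kcnn3, Kcne3 and Kcne4 kept their call in every alternative that tested them.

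Markers of several cell types moved in the same comparison, and their part in the channel values was not tested. Of 6 ventricular cardiomyocyte markers, Myh6 and Ryr2 were lower, Myh7 was higher, and the summed level was 43770 to 51180 CPM in P7 sham and 35120 to 36930 in P7 PAB hearts. Of 5 atrial markers, Nppa and Myl4 were higher, and the sum was 119.5 to 167.5 CPM in P7 sham and 1423 to 1922 in P7 PAB hearts, most of it Nppa. Myl7 and Sln were not called. The study names Nppa, and also Myh7, as marker genes of hypertrophy. Of 5 conduction system markers, Tbx3 was lower, with sums of 35.1 to 37.8 and 23.7 to 32.5 CPM. Of 7 markers of smooth muscle and pericytes, Tagln and Cnn1 were higher, with sums of 1523 to 1724 and 1556 to 1679 CPM. None of 5 endothelial markers was called, and their sums were 1256 to 1316 and 957 to 1057 CPM. Fibroblast and macrophage markers had 1 of 5 called lower each, Pdgfra and Mrc1, with sums of 2030 to 2229 and 1629 to 2157 CPM for fibroblasts and of 82.5 to 105.3 and 67.1 to 77.3 CPM for macrophages. None of 5 erythroid markers was called, and their sums were 1580 to 2125 and 2375 to 2657 CPM. Schwann cell and neuron markers and skeletal muscle markers had 1 gene called higher each, S100b and Myh8, with sums of 6.11 to 7.58 and 6.81 to 7.05 CPM for the former and of 1541 to 1805 and 1623 to 1942 CPM, nearly all Ckm, for the latter. The defining markers Th and Myog were at 0 or below the 3-count limit in every P7 library.

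**Figure D2:**
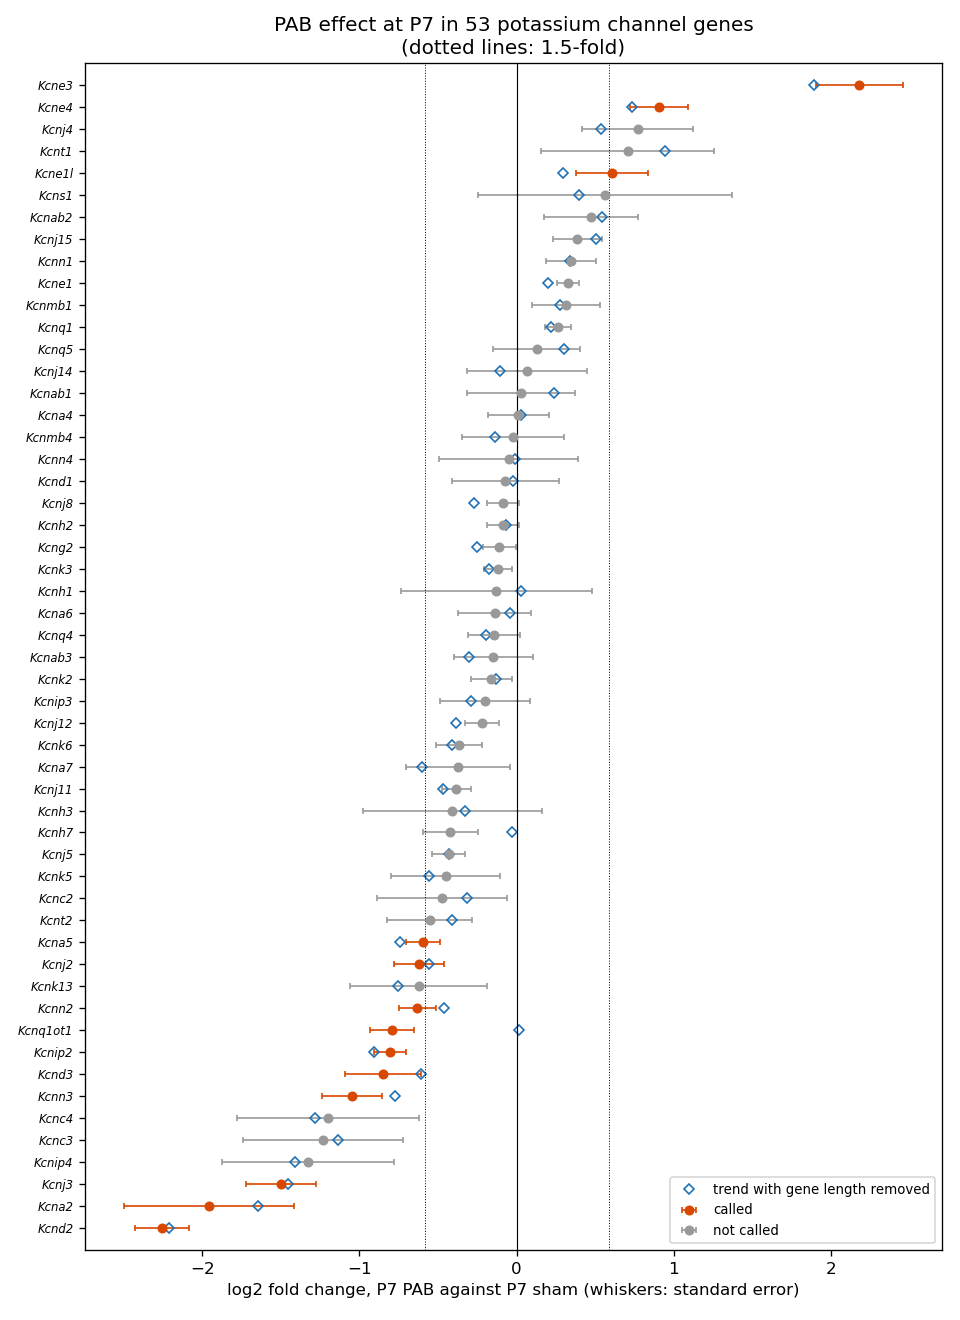
Log2 fold change between P7 PAB and P7 sham hearts for 53 of the 54 potassium channel genes, with bars for the standard error. Genes called in edgeR's test are in orange, and blue diamonds give the value with the length trend removed. Kcnd2 is at the low end and Kcne3 at the high end, and the diamond of Kcnq1ot1 lies near 0.

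The largest decrease called was that of Kcnd2, a gene of the fast transient outward channel. Kcnd2 (ENSMUSG00000060882, chromosome 6 from 21215503 to 21729805) encodes its pore subunit. Its level was 12.7, 11.3 and 14 CPM in P7 sham hearts and 3.06 and 2.22 CPM in P7 PAB hearts. The P7 PAB libraries were also below all P3 libraries, which lay between 4.69 and 6.81 CPM. Kcnd2 was 4.77-fold lower after PAB at P7 (log2 fold change -2.26 ± 0.17 SE, edgeR adjusted p = 5.7e-07). The value was -2.21 with the length trend removed and -2.49 with a term for the Xist and Y class.

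Kcnip2 (ENSMUSG00000025221, chromosome 19 from 45791839 to 45816061) encodes the auxiliary subunit that binds this pore and is needed for the full current. It was at 99.7, 104.4 and 109.4 CPM in P7 sham and at 52.4 and 67.3 CPM in P7 PAB hearts. The P7 PAB level was near the P3 levels, which were 55.0 to 70.2 CPM. The decrease was 1.75-fold (log2 fold change -0.81 ± 0.10 SE, edgeR adjusted p = 2.3e-05). Kcnd3, a related pore subunit (chromosome 3 from 105452330 to 105674002), was at 1.77, 2.04 and 1.84 CPM in P7 sham and at 0.961 and 1.13 CPM in P7 PAB hearts. The change was 1.80-fold (log2 fold change -0.85 ± 0.24 SE, edgeR adjusted p = 0.010), but not called with the length trend removed (-0.61), with a term for the Xist and Y class (-1.001, edgeR adjusted p = 0.095) or without P7 PAB replicate 1 (-0.73, edgeR adjusted p = 0.091). Kcna4, the pore subunit of the slowly recovering transient outward channel, had a range of 4.05 to 7.19 CPM over all 11 libraries and a log2 fold change of 0.01 ± 0.19 SE at P7 (edgeR adjusted p = 0.97).

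**Figure D3:**
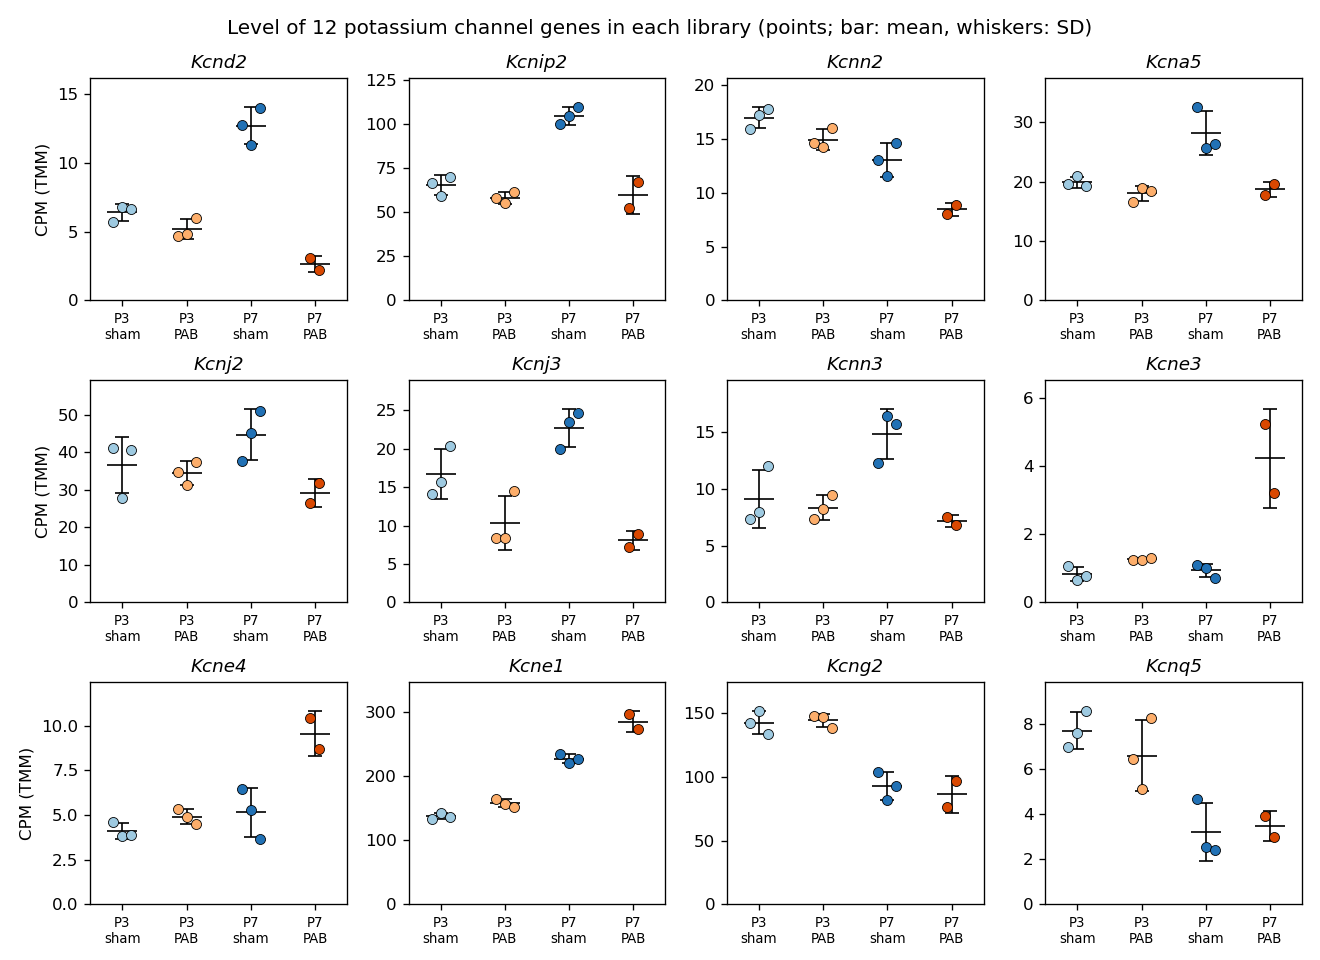
Level in CPM of 12 potassium channel genes in each library of the 4 groups. Points are libraries, and bars mark the mean and SD of each group. The P7 sham and P7 PAB points of Kcnd2, Kcnip2 and Kcne3 do not overlap, and those of Kcnd2 in P7 PAB hearts lie below all others.

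Of the Kv1 pore subunits that passed, Kcna2 and Kcna5 were lower in P7 PAB hearts and Kcna4, Kcna6 and Kcna7 were not called, nor were the pore subunits of the rapid and slow delayed rectifiers. Kcna5 (chromosome 6 from 126532551 to 126535412), the pore subunit of the ultrarapid current, was at 32.5, 25.7 and 26.4 CPM in P7 sham and at 17.8 and 19.6 CPM in P7 PAB hearts. Its decrease of 1.51-fold (log2 fold change -0.59 ± 0.11 SE, edgeR adjusted p = 0.00044) was just past the threshold, and lay under it when scaled by the total count, without P7 sham replicate 1 (-0.48) or without P7 PAB replicate 1 (-0.52). With the length trend removed it was -0.74. Kcna2, another Kv1 pore subunit, was low throughout, at 0.739, 0.437 and 1.01 CPM in P7 sham and 0.175 and 0.197 CPM in P7 PAB hearts. A log2 fold change of -1.96 ± 0.54 SE (edgeR adjusted p = 0.0084) rested on few counts, and without P7 PAB replicate 1 it was -1.87 (edgeR adjusted p = 0.067).

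Kcnq1 is the pore subunit of the slow delayed rectifier, and Kcne1 is its auxiliary subunit. Kcnq1 was at 50.3, 41.0 and 46.9 CPM in P7 sham and 53.9 and 56.6 CPM in P7 PAB hearts, a log2 fold change of 0.26 ± 0.083 SE (edgeR adjusted p = 0.019) that did not reach the fold threshold. Kcne1 was at 234.8, 219.9 and 227.4 CPM in P7 sham and 296.3 and 273.0 CPM in P7 PAB hearts, with 0.32 ± 0.070 SE (edgeR adjusted p = 0.0016), also under the fold threshold. Both genes were higher in each P7 PAB library than in each P7 sham library. Kcnh2, the pore subunit of the rapid delayed rectifier, was at 111.9 to 137.8 CPM in P7 sham and at 106.5 and 131.2 CPM in P7 PAB hearts, and the groups overlapped. Kcng2 (chromosome 18), a modifier that forms no channel on its own, was at 82.2 to 103.6 CPM in P7 sham and at 75.9 and 96.3 CPM in P7 PAB hearts.

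Of the 4 Kcne subunits that passed, 3 were called higher in P7 PAB hearts, against 9.58% of all genes. Kcne3 (ENSMUSG00000035165, chromosome 7 from 100176502 to 100184869), which modifies the gating of Kcnq1 and other pores, was at 1.08, 1.02 and 0.712 CPM in P7 sham and at 5.24 and 3.20 CPM in P7 PAB hearts. All other libraries were at or below 1.30 CPM. The increase was 4.53-fold (log2 fold change 2.18 ± 0.28 SE, edgeR adjusted p = 2.4e-05), and 1.89 with the length trend removed. Kcne4 (chromosome 1 from 78816758 to 78820028), an inhibitory subunit of Kcnq1 and some Kv1 channels, was at 6.45, 5.29 and 3.69 CPM in P7 sham and at 10.4 and 8.67 CPM in P7 PAB hearts. It was 1.87-fold higher (log2 fold change 0.90 ± 0.18 SE, edgeR adjusted p = 0.0010). Kcne1l lies on the X chromosome and was at 2.81, 1.55 and 1.89 CPM in P7 sham and at 3.32 and 3.00 CPM in P7 PAB hearts. Its increase (log2 fold change 0.61 ± 0.23 SE, edgeR adjusted p = 0.043) was lost in 12 alternatives, among them leaving out any of 7 single libraries and a term for the Xist and Y class, which gave 0.55 (edgeR adjusted p = 0.35). With the length trend removed it was 0.29 (edgeR adjusted p = 0.32).

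Among the inward rectifiers, Kcnj2 and Kcnj3 were lower in P7 PAB hearts. Kcnj2 (chromosome 11 from 111066164 to 111076821), the main pore of the classical inward rectifier, was at 37.5, 45.2 and 51.1 CPM in P7 sham and at 26.5 and 31.7 CPM in P7 PAB hearts. The P3 libraries spanned 27.9 to 41.1 CPM, which overlaps both P7 groups. It was 1.54-fold lower (log2 fold change -0.62 ± 0.16 SE, edgeR adjusted p = 0.0052). The call was lost with the length trend removed (-0.56), with a term for the Xist and Y class (-0.35, edgeR adjusted p = 0.36), without P7 sham replicate 3 (-0.51) and without P7 PAB replicate 1 (-0.50). A term for the replicate number also ended the call (-0.53). Its relatives were not called at P7. Kcnj12 had a log2 fold change of -0.22 ± 0.11 SE (edgeR adjusted p = 0.11), Kcnj4 of 0.77 ± 0.36 SE (edgeR adjusted p = 0.092) and Kcnj14 of 0.06 ± 0.38 SE (edgeR adjusted p = 0.91).

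Kcnj3 and Kcnj5 together form the channel that acetylcholine opens through G proteins, which is best known from atria and nodes. Kcnj3 (ENSMUSG00000026824, chromosome 2 from 55435970 to 55598145) was at 19.9, 23.4 and 24.6 CPM in P7 sham and at 7.21 and 8.92 CPM in P7 PAB hearts. It was 2.83-fold lower (log2 fold change -1.498 ± 0.22 SE, edgeR adjusted p = 7.7e-05). It shares 1621 bases, 31.1% of its exonic length, with the antisense RNA Gm26794, and since the strand setting of the counting is not given, their reads cannot be told apart there. Gm26794 itself was at 0.788 to 1.26 CPM in P7 sham and at 0 and 0.394 CPM in P7 PAB hearts. Kcnj5 was at 72.8, 90.4 and 98.8 CPM in P7 sham and at 64.3 and 65.3 CPM in P7 PAB hearts, a log2 fold change of -0.43 ± 0.11 SE (edgeR adjusted p = 0.0039) under the fold threshold. Per kilobase of exonic length, Kcnj3 was 0.224 to 0.246 of Kcnj5 in P7 sham libraries and 0.101 and 0.123 of it in P7 PAB libraries, which describes the pair without a test.

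Neither pore subunit of the ATP-sensitive channels was called at P7. Kcnj11, the pore subunit of the cardiomyocyte form, was at 108.1, 93.8 and 111.2 CPM in P7 sham and at 71.8 and 88.2 CPM in P7 PAB hearts. It changed by -0.38 ± 0.091 SE on the log2 scale (edgeR adjusted p = 0.0032), under the fold threshold. Kcnj8, the pore subunit known from vascular smooth muscle and pericytes, was at 40.9 to 43.4 CPM in P7 sham and at 36.0 and 43.4 CPM in P7 PAB hearts (log2 fold change -0.086 ± 0.10 SE, edgeR adjusted p = 0.53).

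Calcium-activated channels of small conductance open when calcium rises and shape late repolarization. Kcnn3 (chromosome 3 from 89520164 to 89675132) was at 12.3, 16.4 and 15.7 CPM in P7 sham and at 7.51 and 6.80 CPM in P7 PAB hearts, and the P3 sham libraries were at 7.30, 7.99 and 12.01 CPM. It was 2.07-fold lower at P7 (log2 fold change -1.05 ± 0.19 SE, edgeR adjusted p = 0.00047), and -0.77 with the length trend removed. Kcnn2 (chromosome 18) was at 13, 11.5 and 14.6 CPM in P7 sham and at 8.04 and 8.87 CPM in P7 PAB hearts. Its decrease of 1.55-fold (log2 fold change -0.63 ± 0.12 SE, edgeR adjusted p = 0.00053) fell under the fold threshold with the length trend removed (-0.47), without P7 sham replicate 3 (-0.54) and without P7 PAB replicate 1 (-0.56). A term for the replicate number also put Kcnn2 under it (-0.57). Kcnn1 was not called at P7 (log2 fold change 0.34 ± 0.16 SE, edgeR adjusted p = 0.091). Kcnmb1, the beta subunit of the large conductance channel of smooth muscle, was at 2.56 to 2.57 CPM in P7 sham and at 2.79 and 3.60 CPM in P7 PAB hearts (log2 fold change 0.31 ± 0.21 SE, edgeR adjusted p = 0.25).

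None of the 5 two-pore channels was called at P7. Kcnk3, which carries a background current, was at 159.1, 131.5 and 131.7 CPM in P7 sham and at 125.4 and 133.9 CPM in P7 PAB hearts (log2 fold change -0.12 ± 0.087 SE, edgeR adjusted p = 0.29). Kcnk2, a channel opened by stretch, had a log2 fold change of -0.16 ± 0.13 SE (edgeR adjusted p = 0.34), and Kcnk6 of -0.37 ± 0.15 SE (edgeR adjusted p = 0.052).

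Kcnq1ot1 is a long noncoding RNA, antisense to Kcnq1, that silences genes of an imprinted cluster on chromosome 7. It was at 7.93, 9.76 and 10.9 CPM in P7 sham and at 5.42 and 5.62 CPM in P7 PAB hearts (log2 fold change -0.79 ± 0.14 SE, edgeR adjusted p = 0.00036). With an exonic length of 93092 bases it is the longest of the 54, and the log2 fold change was 0.015 with that trend removed. With a term for the Xist and Y class it was -0.58 (edgeR adjusted p = 0.071).

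At P3, none of the 54 genes was called between PAB and sham hearts, against 0.107% of all genes called higher and 0.0188% called lower. The lowest edgeR adjusted p was 0.21, and 5 of the 54, or 9.26%, had an unadjusted p of at most 0.05 in edgeR, against 8.35% of all genes, which were Kcnj4, Kcnj3, Kcne1, Kcnk3 and Kcnj5. Kcnj4 was at 1.59, 1.10 and 0.782 CPM in P3 sham and at 2.57, 2.47 and 2.15 CPM in P3 PAB hearts, a log2 fold change of 1.04 ± 0.27 SE. These libraries did not overlap. Kcnj3 was at 14.2, 15.7 and 20.4 CPM in P3 sham and at 8.34, 8.32 and 14.5 CPM in P3 PAB hearts, with -0.68 ± 0.19 SE (edgeR adjusted p = 0.25). P3 PAB replicate 3 stood above the other P3 PAB replicates, and without it the value was -1.001 (edgeR adjusted p = 0.031). The atrial markers Myl7, at 34.5, 30.7 and 104 CPM, and Myl4, at 36.8, 34.1 and 91.5 CPM in P3 PAB replicates 1 to 3, and Sln, at 2.53, 1.47 and 5.61 CPM, were also highest in that library, while Nppa and Bmp10 were not. No atrial marker was called at P3. Of the conduction system markers Cntn2 was called lower, with sums of 43.0 to 52.6 CPM in P3 sham and 26.0 to 39.5 CPM in P3 PAB hearts. Their part in the Kcnj3 value was not tested. DESeq2 also called Kcnj3 lower, with -0.69 (adjusted p = 0.044), and called no other gene of the 54. A term for the replicate number in edgeR gave this call as well, with -0.70 (edgeR adjusted p = 0.016). Kcnd2 was at 5.71, 6.81 and 6.63 CPM in P3 sham and at 4.69, 4.85 and 6.01 CPM in P3 PAB hearts (log2 fold change -0.30 ± 0.14 SE, edgeR adjusted p = 0.60), and the groups overlapped.

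Between P3 and P7, 8 of the 54 genes rose in sham hearts and 3 fell, which is 14.8% and 5.56% of them, against 5.66% and 5.71% of all genes. The median log2 fold change was 0.19 over the 54 genes and 0.0015 over all. Scaling by the total count moved the median of all genes to -0.31 and that of the 54 to -0.12, and the calls to 3 higher and 11 lower, against 2.53% and 18.1% of all genes, so directions over age hold relative to the median gene. Mitochondrial genes took 11.4% to 13.05% of the counts in the P3 libraries, 21.1% to 22.2% in P7 sham and 18% and 18.1% in P7 PAB libraries, and their part in these values was not tested. Kcnd2 rose 1.99-fold, from 5.71 to 6.81 CPM in P3 sham to 11.3 to 14 CPM in P7 sham hearts (log2 fold change 0.99 ± 0.13 SE, edgeR adjusted p = 6.1e-05), and Kcnip2 rose 1.60-fold, from 59.2 to 70.2 CPM to 99.7 to 109.4 CPM (log2 fold change 0.68 ± 0.089 SE, edgeR adjusted p = 5.6e-05). Kcne1 rose 1.65-fold, from 133.8 to 142.9 CPM to 219.9 to 234.8 CPM (log2 fold change 0.72 ± 0.064 SE, edgeR adjusted p = 1.6e-06). Of the 8 genes that rose, Kcnd2, Kcnj14 and Kcnk13 were also called when scaled by the total count. Kcnn3 rose by 0.71 ± 0.16 SE on the log2 scale (edgeR adjusted p = 0.0039). Without P3 sham replicate 1 its rise was 0.58, just under the fold threshold.

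The other genes that rose in sham hearts were low in counts. Kcnj14, an inward rectifier, was at 0.092 to 0.387 CPM in P3 sham and 0.739 to 1.17 CPM in P7 sham hearts, and the two-pore channel Kcnk13 was at 0.092 to 0.301 and 0.631 to 0.754 CPM. Kcnmb1 rose from 1.24 to 1.80 CPM to 2.56 to 2.57 CPM, and the sodium-activated channel Kcnt2 from 1.503 to 2.71 CPM to 3.10 to 4.32 CPM. With a term for the Xist and Y class, Kcnj14, Kcnk13 and Kcnmb1 had log2 fold changes of 1.18, 1.16 and 0.51 and were not called (edgeR adjusted p = 0.15, 0.20 and 0.27), Kcnmb1 was not called without P3 sham replicate 3 (edgeR adjusted p = 0.066), and Kcnt2 was not called without P3 sham replicate 1 (edgeR adjusted p = 0.057) or P7 sham replicate 2 (edgeR adjusted p = 0.054). The 3 genes that fell were Kcnq5, Kcnn1 and Kcng2. Kcnq5, a pore subunit related to Kcnq1, was at 6.96 to 8.56 CPM in P3 sham and 2.43 to 4.68 CPM in P7 sham hearts (2.42-fold lower, log2 fold change -1.27 ± 0.23 SE, edgeR adjusted p = 0.00066). Kcnn1 fell 1.85-fold, from 7.78 to 8.48 CPM to 3.54 to 4.99 CPM (edgeR adjusted p = 0.00020). Kcng2 fell 1.53-fold, from 133.5 to 151.2 CPM to 82.2 to 103.6 CPM (edgeR adjusted p = 0.00018), and lay under the fold threshold without P3 sham replicate 2 or P7 sham replicate 2 (log2 fold change -0.57 and -0.54).

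Cell type markers also moved over age, and their part in the channel values was not tested. In sham hearts the atrial markers Nppa and Bmp10 were lower, with sums of 211.3 to 312.3 CPM at P3 and 119.5 to 167.5 CPM at P7. Of the conduction system markers Hcn4, Cacna2d2 and Cntn2 were lower and Tbx3 higher, with sums of 43.0 to 52.6 and 35.1 to 37.8 CPM. Of the smooth muscle and pericyte markers Myh11 and Rgs5 were higher, by 0.79 and 1.13 on the log2 scale, and Cnn1 lower, with sums of 1277 to 1416 and 1523 to 1724 CPM. Myh7 and the erythroid Slc4a1 were lower, and the fibroblast marker Dcn and the macrophage marker C1qa were higher. In PAB hearts Nppa, Myh11, Tagln, Dcn and S100b were higher, and Myh6, Ryr2, Bmp10 and Cacna2d2 lower.

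In PAB hearts, 7 of the 54 genes rose from P3 to P7 and 6 fell, which is 13% and 11.1% of them, against 9.48% and 8.16% of all genes. Scaling by the total count gave 5 that rose and 14 that fell, against 4.08% and 19.3% of all genes, with the median of all genes at -0.24. This comparison shares its P7 libraries with the PAB comparison at P7, and the values are set side by side without a test. Kcnd2 fell by 0.97 ± 0.18 SE on the log2 scale in PAB hearts (edgeR adjusted p = 0.00062), where it rose by 0.99 in sham hearts. Kcnip2 had a log2 fold change of 0.04 ± 0.10 SE in PAB hearts (edgeR adjusted p = 0.78). Kcne1 rose in PAB hearts too, by 0.85 ± 0.070 SE (edgeR adjusted p = 8.1e-07), as did Kcnj14 by 1.64 ± 0.44 SE (edgeR adjusted p = 0.0068) and Kcnmb1 by 0.94 ± 0.22 SE (edgeR adjusted p = 0.0030). Without P7 PAB replicate 1, Kcnj14 was at 1.499 (edgeR adjusted p = 0.059).

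The other genes that rose in PAB hearts were Kcne3 by 1.74 ± 0.26 SE (edgeR adjusted p = 0.00011), Kcne4 by 0.96 ± 0.18 SE (edgeR adjusted p = 0.00065), the inward rectifier Kcnj15 by 0.77 ± 0.16 SE (edgeR adjusted p = 0.0012) and the Kv beta subunit Kcnab1 by 0.94 ± 0.36 SE (edgeR adjusted p = 0.047). The libraries of Kcnab1 overlapped between P3 and P7 PAB, and its call was lost without any of 7 single libraries. Genes that fell were Kcng2 by 0.75 ± 0.11 SE (edgeR adjusted p = 6.4e-05), Kcnn2 by 0.82 ± 0.12 SE (edgeR adjusted p = 5.7e-05), Kcnq5 by 0.92 ± 0.26 SE (edgeR adjusted p = 0.0090), Kcnj4 by 0.94 ± 0.31 SE (edgeR adjusted p = 0.023) and Kcnq1ot1 by 0.97 ± 0.14 SE (edgeR adjusted p = 6.3e-05), besides Kcnd2. Kcnq1ot1 was at -0.29 with the length trend removed. Kcng2 was at -0.58 without P7 PAB replicate 1, Kcnq5 at -0.75 without P7 PAB replicate 2 (edgeR adjusted p = 0.083), and Kcnj4 lost its call without any 1 of 4 libraries, P3 PAB replicates 1 and 2 and both P7 PAB replicates (edgeR adjusted p between 0.052 and 0.11).

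**Figure D4:**
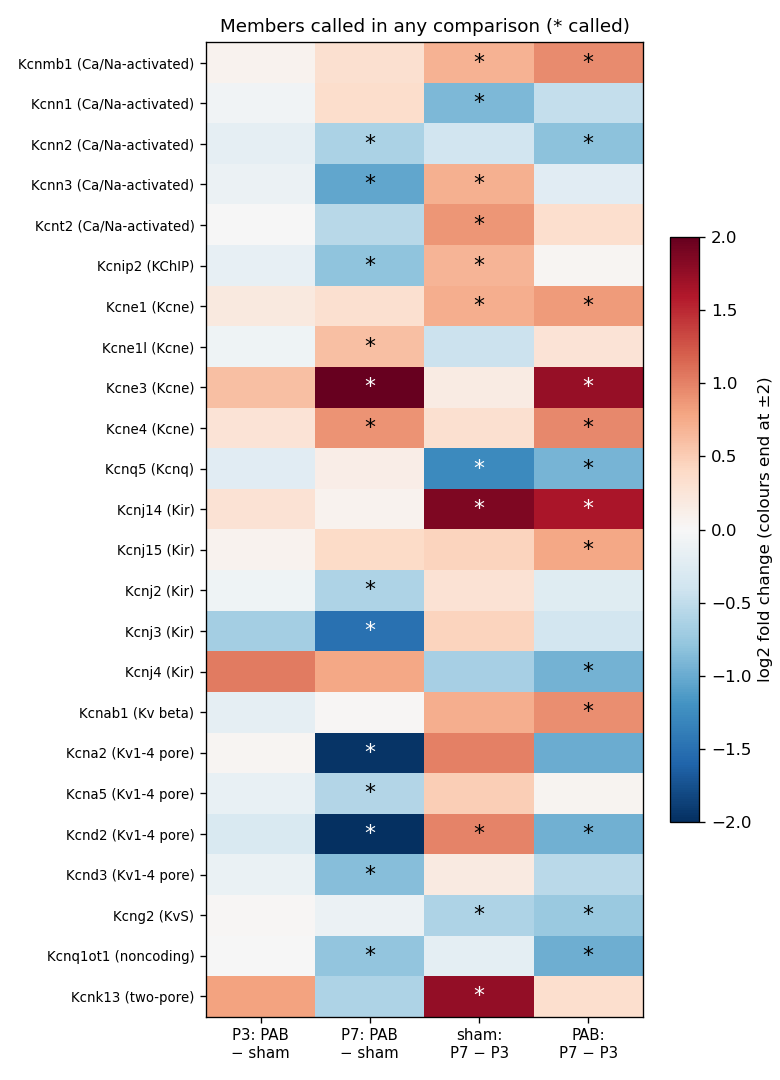
Log2 fold change of 24 of the 25 potassium channel genes called in at least 1 of the 4 comparisons, with colours that end at 2 in either direction and asterisks on calls (fold change of 1.5 or more with an edgeR adjusted p up to 0.05). The column for P3 PAB against P3 sham holds no asterisk, and the row of Kcnd2 changes sign between the age columns of sham and PAB hearts.

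Of the 54 genes, 25 were called in at least 1 of the 4 comparisons, which is 46.3% against 31.9% of all genes, and 29 in none. Of 24 genes that are known from cardiac electrophysiology and passed the filter, 10 were called in no comparison, which were Kcna4, Kcnq1, Kcnh2, Kcnj5, Kcnj8, Kcnj11, Kcnj12, Kcnk2, Kcnk3 and Kcnk6. The remaining 19 of the 54 genes were at or below 6.495 CPM in every library. At P7 their log2 fold changes between PAB and sham hearts ran from -1.33 for Kcnip4 to 0.71 for Kcnt1, and the lowest edgeR adjusted p was 0.061, for Kcnh7. The effect of PAB differed between P7 and P3 for 10 of the 54 genes, 18.5% of them, at an edgeR adjusted p of at most 0.05 for the interaction of age and operation, against 25.7% of all genes.

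Genes outside the Kcn name that encode partners of these channels were taken as a list of 17, of which 13 were tested. In P7 PAB hearts 6 of the 13 were lower, against 8.58% of all genes, and the other 7 were not called. Abcc9, the sulfonylurea receptor subunit of ATP-sensitive channels, was at 420.6, 509.8 and 550.5 CPM in P7 sham and at 268.2 and 270.0 CPM in P7 PAB hearts (log2 fold change -0.88 ± 0.11 SE, edgeR adjusted p = 1.5e-05), while Abcc8 was not called (-0.19 ± 0.081 SE, edgeR adjusted p = 0.062). Hcn2, a pacemaker channel subunit, was at 30.1, 21.6 and 26.8 CPM in P7 sham and at 8.12 and 10.2 CPM in P7 PAB hearts (log2 fold change -1.52 ± 0.14 SE, edgeR adjusted p = 2.4e-06). Its P3 sham libraries lay between 11.0 and 12.2 CPM. Akap9, a scaffold of the slow delayed rectifier, had a log2 fold change of -0.93 ± 0.12 SE (edgeR adjusted p = 2.6e-05), Amigo1, an auxiliary subunit of Kv channels, of -0.61 ± 0.11 SE (edgeR adjusted p = 0.00035), and Lrrc55 and Lrrc52, auxiliary subunits of large conductance channels, of -1.20 ± 0.25 SE (edgeR adjusted p = 0.0011) and -1.84 ± 0.72 SE (edgeR adjusted p = 0.049). With the length trend removed, Akap9 (-0.43) and Amigo1 (-0.54) were under the fold threshold, and with a term for the Xist and Y class Amigo1, at -0.46, and Lrrc52, at -2.21, were not called (edgeR adjusted p = 0.072 and 0.18). At P3 the edgeR adjusted p was 0.11 or above for all 13. Over age, Hcn2 and Lrrc55 rose and Hcn4 fell in sham hearts, and Akap9, Amigo1 and Irx3 fell in PAB hearts, where the calls of Akap9 (-0.21) and Amigo1 (-0.52) were lost with the length trend removed. Irx3 and Irx5, of which Irx5 is known as a repressor of Kcnd2 across the ventricular wall, had log2 fold changes of -0.41 ± 0.13 SE (edgeR adjusted p = 0.022) and -0.30 ± 0.18 SE (edgeR adjusted p = 0.19) at P7.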

How the data were processed

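RNA-seq of mouse ventricles was deposited by the authors as 1 table of raw counts per gene and library. The authors aligned paired-end reads with STAR 2.5.2b to GRCm38 with the Gencode annotation. The counting tool, strand setting and Gencode release are not given in the sources used here. All 11 columns were used, grouped by their labels, with no column of unknown sample. Positions and exonic lengths came from GENCODE M21 for GRCm38, and promoter windows from RefSeq. Counts were analysed in R 4.3.3 with edgeR 4.0.16 (TMM, 1 quasi-likelihood fit with 4 groups and every library) over the 15924 genes with at least 10 counts in 2 or more libraries, and p-values were adjusted over all of them by the Benjamini-Hochberg method. Calls required a change of 1.5-fold or more with an adjusted p up to 0.05, and the interaction at the adjusted p alone. Log2 fold changes are edgeR's, with SE. CPM values use TMM library sizes.

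Alternatives were RLE or total-count scaling, other filters, DESeq2 1.42.0, only the 2 groups compared, a replicate block, removal of the length trend (lowess, span 0.3), a term for the Xist and Y class, unadjusted p, no fold threshold, and leaving out each library. On simulated counts for 15924 genes with 200 changed 2-fold, the P7 PAB comparison recovered 76.0% with 7 false calls, and the P3 comparison 82.0% with 7. Genes named are those called in any of the 4 comparisons and 27 listed genes of cardiac electrophysiology. Of these, 1 gene is counted but not reported here. The 27 genes and the family, partner and marker lists were chosen with earlier results of these data known. Plots used matplotlib 3.10.9 in Python 3.11.15.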

Additional observations from a re-analysis of the deposited data

Results flagged for a closer look

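The effect of PAB differed between P7 and P3 for 10 potassium channel genes, by edgeR's test of the interaction of age and operation with an adjusted p of at most 0.05. Values are the log2 effect of PAB at P7 minus that at P3. Kcnd2 had the largest, -1.96 ± 0.22 SE (edgeR adjusted p = 8.7e-05), with an effect of -0.30 at P3 and -2.26 at P7. Kcnip2 had -0.64 ± 0.14 SE (edgeR adjusted p = 0.0037). Both kept the call in every alternative that tested them. Kcne3 had 1.57 ± 0.41 SE (edgeR adjusted p = 0.011), with effects of 0.61 and 2.18, and 1.17 (edgeR adjusted p = 0.073) without P7 PAB replicate 1.

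Kcnn3 had -0.93 ± 0.26 SE (edgeR adjusted p = 0.016) and Kcnq1ot1 had -0.78 ± 0.18 SE (edgeR adjusted p = 0.0057). With the length trend removed they were at -0.69 and -0.01, with edgeR adjusted p of 0.053 and 0.97, and with a term for the Xist and Y class Kcnq1ot1 was at -0.65 and not called (edgeR adjusted p = 0.051). Without P7 PAB replicate 2, Kcnn3 was at -0.86 (edgeR adjusted p = 0.052).

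Kcna5 had -0.45 ± 0.14 SE (edgeR adjusted p = 0.033), Kcnn2 had -0.45 ± 0.15 SE (edgeR adjusted p = 0.040), Kcnj3 had -0.81 ± 0.29 SE (edgeR adjusted p = 0.050) and Kcnk3 had -0.34 ± 0.12 SE (edgeR adjusted p = 0.048). With the length trend removed, Kcnn2 was at -0.31 and Kcnj3 at -0.78, and neither was called (edgeR adjusted p = 0.16 and 0.067). All 4 calls were lost with a term for the Xist and Y class, where Kcna5 was at -0.48, Kcnn2 at -0.54, Kcnj3 at -1.05 and Kcnk3 at -0.27 (edgeR adjusted p = 0.093, 0.058, 0.052 and 0.24), and leaving out single libraries ended each of them in 6 to 8 of the 11 cases. Kcnk3 was the only one of the 10 not called in any of the 4 comparisons.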

How the results depend on the processing

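Of 4090 values of single genes under the alternatives, 3893 kept their side of the threshold, 118 lost and 77 gained a call, and 2 with a call reversed. A change of direction was not counted where neither the main value nor the alternative was called. The reversed values are both of Kcnq1ot1 between P7 PAB and P7 sham hearts, 0.015 with the length trend removed and 0.00043 with the replicate block as well, the longest of these genes. For the counts of potassium channel genes, total-count scaling gave 3 higher and 11 lower over age in sham hearts and 14 lower in PAB hearts. The stricter filter gave 5 and 3 higher over age in sham and PAB hearts, where fewer genes were tested. DESeq2 gave 1 lower at P3. The length trend removed gave 6 lower at P7 and 6 interactions. A term for the Xist and Y class gave 5 higher over age in sham hearts and 6 interactions. Unadjusted p gave 1 higher and 1 lower at P3 and 18 interactions. No fold threshold gave 5 higher at P7, 15 higher and 7 lower over age in sham hearts, and 10 lower in PAB hearts. Leaving out each library gave 0 to 1 lower at P3 (1 without P3 PAB replicate 3), 7 to 12 lower at P7 (7 without P7 PAB replicate 1) and 5 to 13 interactions (5 without P7 PAB replicate 1, 6 without P3 sham replicate 1). An arm left with 1 library was assumed to vary like the other groups.

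Over all groups, deviations of libraries with the same replicate number correlated between -0.094 and 0.137. Between P3 sham and P3 PAB, same-number pairs correlated at 0.077, 0.075 and 0.137. Pairs with different numbers there lay between -0.083 and 0.0084. The labels do not say whether the numbers pair the libraries, and these values do not settle it. With the replicate block, 1 gene was lower at P3 (Kcnj3, -0.70, edgeR adjusted p = 0.016) and 9 at P7, where Kcnj2 and Kcnn2 were under the fold threshold. With the block and the length trend removed, 1 was lower at P3 and 5 at P7. Where a gene had fewer than 10 counts in a library, as Kcna2 did in both P7 PAB libraries, depth limits its fold change, and genes outside the filter were not compared.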

Other observations

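Per kilobase of exonic length, partner subunits of one channel kept different proportions over the groups. These ratios were chosen after the values were seen and are given without a test. Kcnd2 was 6.38 to 8.33 times Kcnd3 in P3 sham, 5.68 to 7.25 times in P3 PAB, 10.3 to 14.1 times in P7 sham, and 5.92 and 3.64 times in P7 PAB libraries. Kcnd2 was 0.058 to 0.078 of Kcnip2 in P3 sham, 0.055 to 0.066 in P3 PAB, 0.073 to 0.086 in P7 sham, and 0.039 and 0.022 of it in P7 PAB libraries. Kcne1 was 2.87 to 3.07 times Kcnq1 in P3 sham, 3.25 to 3.74 times in P3 PAB, 5.94 to 6.83 times in P7 sham, and 7.01 and 6.14 times in P7 PAB libraries. The Kcne1 to Kcnq1 ratio was thus higher in each P7 library than in each P3 library, and its P7 groups overlapped.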
